A study of Rattus norvegicus with 12 samples.

Results

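The fibroblast growth factor (FGF), platelet-derived growth factor (PDGF), vascular endothelial growth factor (VEGF) and insulin-like growth factor (IGF) systems were examined in the fetal rat kidney, as all genes whose symbol marks a ligand, receptor or binding protein of one of them. Symbols starting with Fgf and a digit, Fgfr1 to Fgfr4, Pdgf, Igf1, Igf2 or Igfbp, together with Fgfrl1, Vegfa to Vegfd, Kdr, Flt1 and Flt4, were taken, and 40 of the 14557 genes named by a single symbol on the array matched. They were 18 FGF, 7 PDGF, 4 VEGF and 9 IGF genes, plus Fgfr1op2 and Igf2bp1, which match by name but encode neither a ligand nor a receptor and are kept apart from the 4 systems (differences of 0.05 and 0.07, neither called). Each was read by 1 row of the table, so no choice between rows was needed. Fgf2, Fgf7, Fgf8, Fgfr1 to Fgfr3, Igf1, Igf2, Vegfa, Kdr and Igfbp5 were not analysed here.

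The study asked whether disrupting the mother's daily rhythm during gestation alters gene expression in the fetal kidney. Sprague-Dawley dams were held either under chronic photoperiod shifting (CPS), in which day and night were inverted again and again through pregnancy before a return to the ordinary cycle, or under a constant 12:12 light-dark cycle (LD). Kidneys were taken at 19 days of gestation, and each of the 6 CPS and 6 LD arrays carried a pool of kidneys from 6 fetuses whose sex was not recorded. The methods set sampling at 8 h clock time, whereas a sample field gives 20 h, for both groups alike. A pool averages over all renal cell types, so fewer cells of a type and less RNA per cell cannot be told apart in any value below. The paper names 6 mothers as the source of the pooled kidneys, without saying whether this number is per group. The sources do not settle whether each pool had its own mother. Where pools share a mother, p-values measure only the spread between pools.

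All values are log2 intensities after robust multiarray averaging (RMA), and differences are CPS minus LD. The 12 arrays were alike, with pairwise correlations of 0.978 to 0.987. Marker genes of nephron progenitors averaged 7.51 to 7.69 in CPS pools and 7.31 to 7.65 in LD pools, and those of podocytes 6.90 to 7.46 and 6.67 to 7.15. A stromal list of 10 genes was higher in CPS pools, at 9.03 to 9.18 against 8.92 to 9.03 in LD pools, and the groups touched without overlapping. The marker lists were drawn up with earlier results of these data known, so this is a description with no test. Liver genes varied widely among pools, at 4.92 to 7.19 in CPS and 4.45 to 6.76 in LD, highest in CPS replicate 2 and LD replicate 6. Adrenal cortex genes averaged 3.14 to 4.01 in CPS pools and 2.98 to 3.42 in LD pools, with group means of 3.60 and 3.23.

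All 4 systems signal through receptor tyrosine kinases at the cell surface. FGF ligands act between epithelium and mesenchyme and support nephron progenitors and ureteric branching, while PDGF ligands recruit mesangial cells and pericytes to the forming glomerulus and its vessels. VEGF ligands guide blood and lymphatic endothelium, and IGF ligands drive fetal growth under the control of binding proteins and of IGF2R, a receptor that clears IGF2 rather than passing on its signal.

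A member was called where limma's moderated test gave an unadjusted p under 0.05, the threshold named in the methods. By this rule 6 of 40 members were higher in CPS kidneys, Igf1r, Igf2r, Igfbp3, Flt4, Pdgfd and Fgf11, where 2.94% of all named genes were (3.05% of those above dim signal, defined below), and 1 of 40 was lower, Fgf21, where 1.78% were. In either direction the 7 of 40 compare with 4.72% of named genes and 5.3% of all rows. No difference passed correction: limma's adjusted p over all 36685 rows was 0.887 for each of these 7, and 0 rows passed Benjamini-Hochberg adjustment by limma or by the methods' test, against 1946 and 2020 rows at an unadjusted p under 0.05. In 0 of the 40 members did all CPS pools lie beyond all LD pools, as in 0.295% of named genes. The exact permutation test over all 924 splits gave p under 0.05 for 5 members, of which 4 were among the 7.

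**Figure D1:**
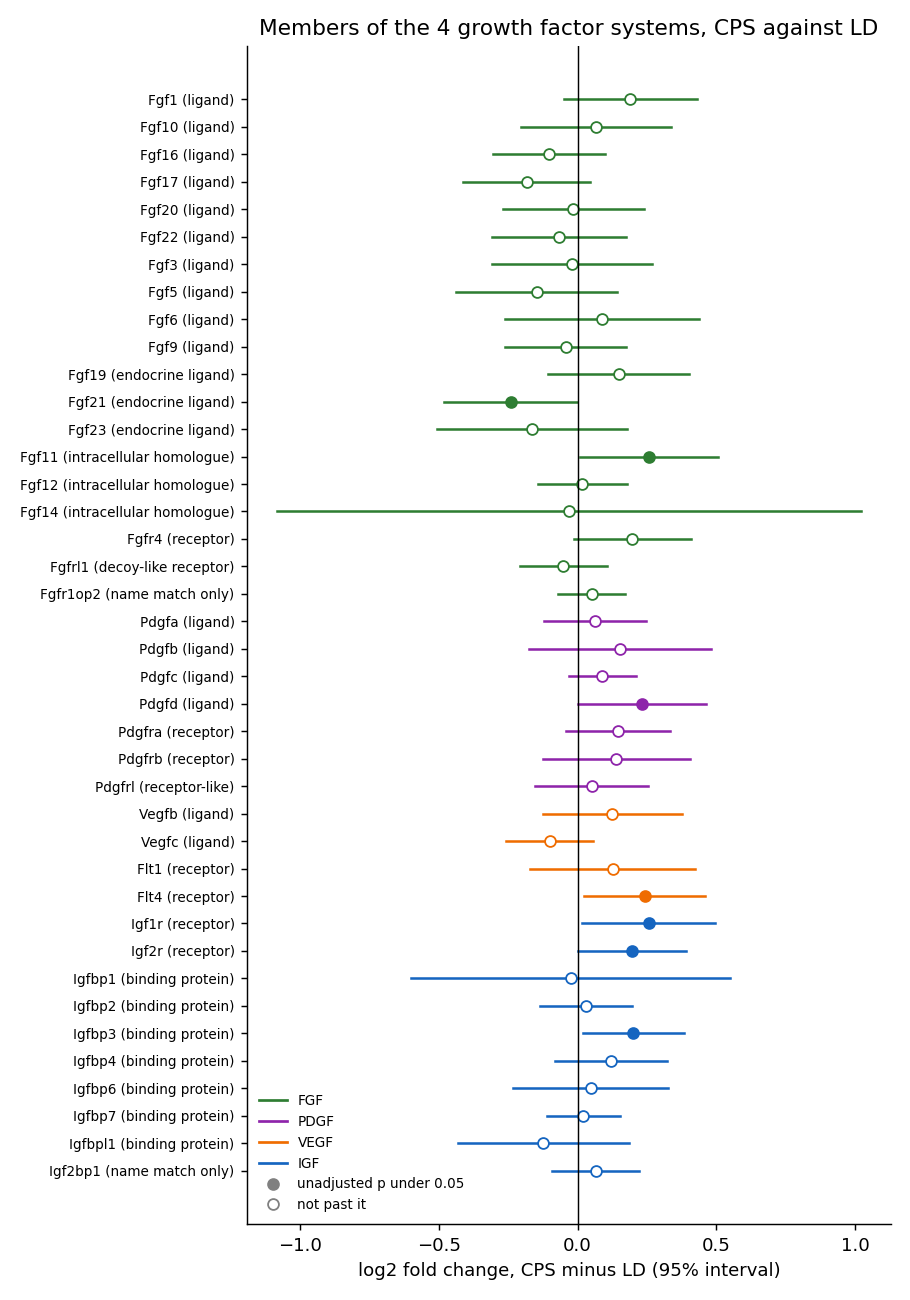
Log2 fold change (CPS minus LD) of the 40 members with limma's 95% interval, coloured by system, filled where the unadjusted p was under 0.05. The 7 filled points lie between -0.24 and 0.26, all 7 receptors lie right of 0, and the FGF ligands scatter on both sides.

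All 7 PDGF genes had a positive difference, with a median of 0.14, and so had 3 of 4 VEGF genes (median 0.13) and 7 of 9 IGF genes (median 0.05). In the FGF system 7 of 18 were positive, with a median of -0.03, or 0.001 over those above dim signal. Over all named genes 53.6% were positive and the median was 0.01. By role, the 7 receptors (Fgfr4, Pdgfra, Pdgfrb, Flt1, Flt4, Igf1r and Igf2r) had a median of 0.20, with 7 positive and 3 called higher. Fgfr1 to Fgfr3 and Kdr are not included. The 19 ligands had a median of -0.02, with 9 positive and 1 called in each direction. Of named genes 2.94% were called higher and 1.78% lower. Dim signal held 6 of the 19 ligands and 0 of the 7 receptors. The 6 dim members had a median of -0.13, with 1 positive and 5 negative. These counts describe the lists and were not tested.

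The promoters of the 3 called genes that hold the CLOCK and BMAL1 binding element are shown first, because the study perturbed the daily clock. This E-box, CACGTG, was searched with the D-box (TTATGTAA or TTACGTAA), bound by DBP, and the core of the hypoxia element (ACGTG or GCGTG), on both strands, in 250 bases before to 50 after each RefSeq start on GRCr8. Any E-box contains a hypoxia core. The 250 upstream bases are printed 5′ to 3′ with every match in capitals, for Igf1r at chr1:130959747-130959996 (plus strand), Igf2r at chr1:50526628-50526877 (plus strand) and Fgf21 at chr1:105221377-105221626 (minus strand).
Igf1r: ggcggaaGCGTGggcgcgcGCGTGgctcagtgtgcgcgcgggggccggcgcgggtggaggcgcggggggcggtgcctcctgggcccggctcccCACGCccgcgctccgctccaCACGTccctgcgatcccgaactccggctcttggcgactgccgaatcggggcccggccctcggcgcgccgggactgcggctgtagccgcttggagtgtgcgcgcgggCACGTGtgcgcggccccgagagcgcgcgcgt
Igf2r: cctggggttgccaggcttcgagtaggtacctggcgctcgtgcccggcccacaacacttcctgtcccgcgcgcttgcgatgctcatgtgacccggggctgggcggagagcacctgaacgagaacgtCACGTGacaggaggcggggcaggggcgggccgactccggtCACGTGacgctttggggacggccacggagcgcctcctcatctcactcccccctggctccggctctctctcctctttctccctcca
Fgf21: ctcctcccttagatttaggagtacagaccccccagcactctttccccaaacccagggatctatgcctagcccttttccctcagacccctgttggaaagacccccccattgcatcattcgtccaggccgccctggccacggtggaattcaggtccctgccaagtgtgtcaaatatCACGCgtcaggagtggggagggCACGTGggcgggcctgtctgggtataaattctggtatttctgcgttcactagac
Counting back from -1, the base before the start, Igf1r held an E-box at position -31, Igf2r at -125 and -85, and Fgf21 at -54. In all, 33 of 40 members matched the RefSeq table, and 7 of these 33 (21.2%) held an E-box, against 7.08% of 27457 genes. The other holders, Fgf6, Fgf14, Fgfrl1 and Igfbp2, were not called. No member held a D-box, which 1.09% of genes did, and 54.5% held a hypoxia core against 44.6% of genes. Member promoters were richer in G and C, with a median of 63.6% against 52% for all genes, and CACGTG contains CG. A match is a string of letters and says nothing of binding.

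The IGF system had the most calls, 3 of 9, all higher, where 2.94% of named genes were. These were its 2 receptors and Igfbp3. Igf1r, the kinase that passes on both IGF signals, measured 7.60, 7.87 and 8.13 (lowest, median and highest) in CPS pools and 7.41, 7.61 and 7.88 in LD pools. The groups overlapped, 3 CPS pools lay above every LD pool, and CPS replicate 6 was the lowest CPS pool. The difference was 0.26 ± 0.11 (SE), a limma p of 0.0385 and an exact permutation p of 0.0476. Without 1 array the limma p ran between 0.0146 and 0.0891, and the call was lost without CPS replicate 2, 4 or 5 or LD replicate 1, 5 or 6.

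Igf2r, which carries IGF2 to the lysosome and is imprinted in rodents, measured 8.71, 8.84 and 9.002 in CPS pools and 8.47, 8.62 and 8.85 in LD pools. All 6 CPS pools exceeded the LD median and 3 lay above every LD pool. The difference was 0.20 ± 0.09 (limma p = 0.0480, exact permutation p = 0.0411). The call was lost without CPS replicate 2, 4 or 5 or LD replicate 1, 2, 5 or 6, where limma p reached 0.105. Igfbp3, the main circulating carrier of IGFs after birth, measured 7.48, 7.69 and 7.84 in CPS pools and 7.33, 7.52 and 7.62 in LD pools. In 4 CPS pools it was above every LD pool, and CPS replicate 6 was again lowest. The difference was 0.20 ± 0.08 (limma p = 0.0329, exact permutation p = 0.0281), and the call was lost without CPS replicate 1, 2, 3 or 4 or LD replicate 1 or 5, with p up to 0.0746.

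The other binding proteins were not called. Igfbp1, a liver and decidual product that responds to insulin, measured 4.27, 4.89 and 5.91 in CPS pools and 4.30, 4.90 and 5.71 in LD pools, a wide spread inside both groups, and differed by -0.03 ± 0.26. Its highest CPS value was in replicate 2, the CPS pool with the highest liver list. Among LD pools Igfbp1 was highest in replicate 1, and it was 5.19 in replicate 6, the LD pool with the highest liver list. The part of liver tissue in Igfbp1 was not tested. Igfbp2, abundant in fetal epithelia, measured 8.76, 8.92 and 9.12 in CPS pools and 8.76, 8.88 and 9.06 in LD pools, and differed by 0.03 ± 0.08. Igfbp4, which is cleaved by the protease PAPP-A, measured 8.50, 8.68 and 8.76 in CPS pools and 8.31, 8.47 and 8.80 in LD pools, a difference of 0.12 ± 0.09. All 6 CPS pools exceeded the LD median of Igfbp4, but LD replicate 6 was the highest of all. Igfbp6, Igfbp7 and Igfbpl1 differed by 0.05, 0.02 and -0.12.

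**Figure D2:**
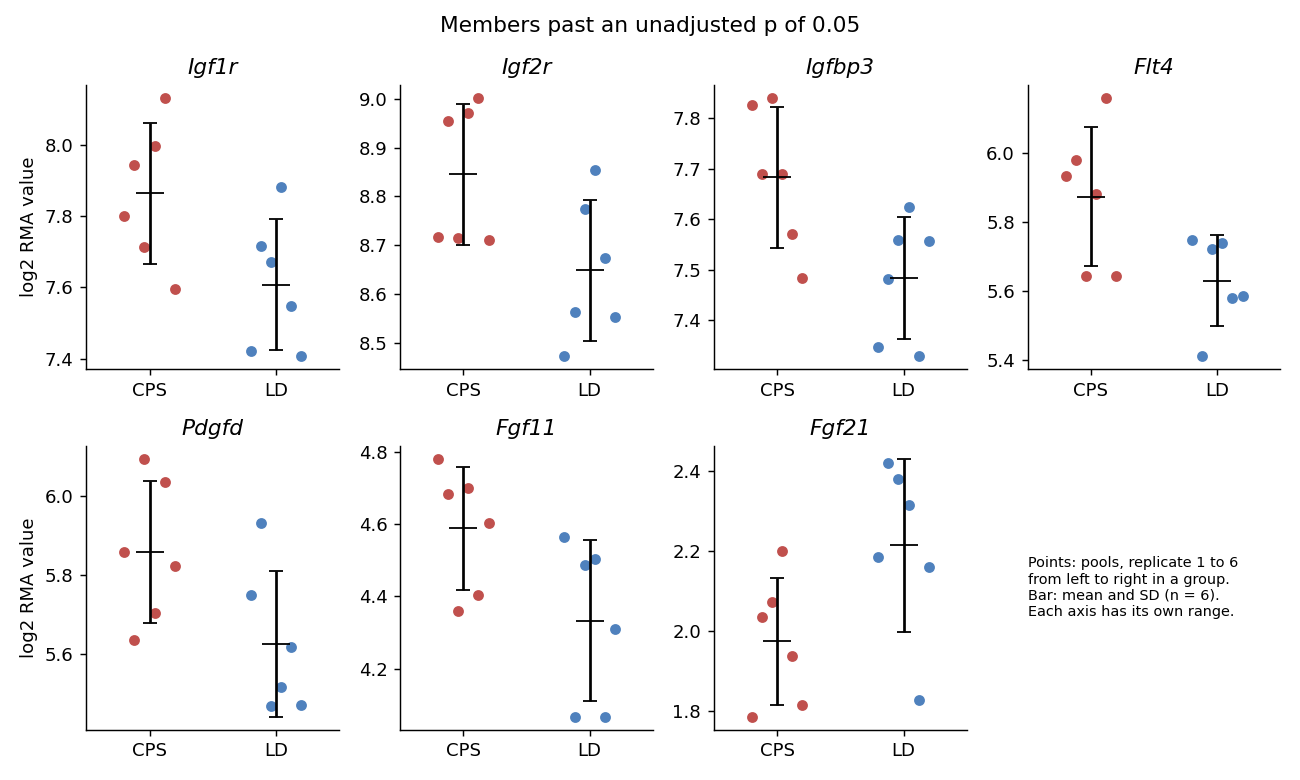
Log2 RMA value of the 7 members called at an unadjusted p under 0.05 in each pool, CPS left of LD, with the mean and SD of 6 pools. The groups overlap in every panel, and Fgf21 is the only panel with lower CPS values.

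Among 20 measured partners of the IGF pathway, outside the members, 5 were called higher in CPS, where 2.94% of named genes were, and 0 lower, with a median of 0.07. The list was made with earlier results known, Dlk1 and Foxo1 among them, so its count supports nothing beyond the values themselves. Dlk1, a membrane protein of the imprinted region that restrains differentiation, measured 6.22, 6.46 and 7.39 in CPS pools and 5.72, 5.86 and 6.07 in LD pools. Every CPS pool lay above every LD pool (difference 0.73 ± 0.19). Dlk1 is also made by adrenal and muscle tissue, and the muscle list averaged 3.40 to 6.90 in CPS pools and 3.17 to 4.60 in LD pools, highest in CPS replicate 1, the pool with the highest Dlk1; its part in the Dlk1 difference was not tested. Pappa2, a protease that frees IGFs by cutting IGFBP3 and IGFBP5, measured 4.44, 4.72 and 5.08 in CPS pools and 4.03, 4.33 and 4.60 in LD pools, a difference of 0.42 ± 0.12 (limma p = 0.0048, exact permutation p = 0.00866). In 5 CPS pools Pappa2 was above every LD pool. Foxo1, a transcription factor that IGF signalling keeps out of the nucleus, differed by 0.30 ± 0.12. The receptor adaptors Irs2 and Irs4 differed by 0.19 ± 0.09 and 0.35 ± 0.14, and Irs1 by -0.06 ± 0.08. The limma adjusted p was 0.887 for each of the 5.

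The VEGF system was represented by 2 ligands and 2 receptors. Flt4, the VEGF-C receptor of lymphatic endothelium, measured 5.64, 5.91 and 6.16 in CPS pools and 5.41, 5.65 and 5.75 in LD pools. In 4 CPS pools it was above every LD pool, and the other CPS pools lay near the LD median. The difference was 0.24 ± 0.10 (limma p = 0.0327, exact permutation p = 0.0368), and the call was lost without CPS replicate 1, 2, 4 or 5 or LD replicate 2, 5 or 6, with p up to 0.0760. Vegfc, its ligand, lay on the other side, at 6.05, 6.24 and 6.41 in CPS pools and 6.25, 6.32 and 6.39 in LD pools (difference -0.10 ± 0.07, limma p = 0.190, exact permutation p = 0.143). In 3 CPS pools Vegfc was below every LD pool.

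Flt1, a receptor that also traps VEGF in a soluble form, measured 5.70, 6.02 and 6.30 in CPS pools and 5.36, 6.00 and 6.07 in LD pools, and differed by 0.13 ± 0.14. The medians were close, and the low LD value came from replicate 6. Vegfb, a ligand of the Flt1 product, measured 8.10, 8.22 and 8.53 in CPS pools and 7.87, 8.15 and 8.39 in LD pools, a difference of 0.13 ± 0.12. General endothelial markers did not stand apart, at 6.93 to 7.20 in CPS pools and 6.89 to 7.11 in LD pools. Among 15 VEGF pathway partners 0 were called higher and 1 lower, where 2.94% and 1.78% of named genes were, with a median of 0.03. That gene was Esm1, an endothelial proteoglycan induced by VEGF, at 3.26, 3.51 and 3.60 in CPS pools and 3.55, 3.77 and 4.21 in LD pools (difference -0.35 ± 0.11, limma p = 0.0092, exact permutation p = 0.00866). Flt4 and Esm1 lay on opposite sides of 0.

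In the PDGF system Pdgfd, a ligand of the beta receptor that must be cleaved to act, measured 5.64, 5.84 and 6.09 in CPS pools and 5.47, 5.57 and 5.93 in LD pools. All 6 CPS pools exceeded the LD median and 2 lay above every LD pool. The difference was 0.23 ± 0.11 (limma p = 0.0483, exact permutation p = 0.0519). The call was lost without CPS replicate 1, 3, 5 or 6 or LD replicate 3, 4, 5 or 6, with p up to 0.108. Pdgfc, a ligand of the alpha receptor, measured 8.91, 8.99 and 9.07 in CPS pools and 8.84, 8.89 and 8.98 in LD pools, a difference of 0.09 ± 0.06. Its pools were tightly grouped, and limma, which borrows spread from all rows, gave p = 0.138 where the exact permutation test gave p = 0.0195.

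Pdgfa, which acts on stromal cells, measured 7.97, 8.22 and 8.43 in CPS pools and 8.06, 8.15 and 8.24 in LD pools, so the CPS range enclosed the LD range, and differed by 0.06 ± 0.08. Pdgfb, made by endothelium to recruit mesangial cells, measured 5.51, 6.17 and 6.28 in CPS pools and 5.67, 5.85 and 6.31 in LD pools (0.15 ± 0.15). Its CPS values were high in most pools and lowest in replicate 6. Pdgfra, the receptor of stromal cells, measured 8.83, 8.94 and 9.07 in CPS pools and 8.52, 8.82 and 9.01 in LD pools, with all 6 CPS pools above the LD median (0.15 ± 0.09, limma p = 0.113, exact permutation p = 0.0866). Pdgfrb, the receptor of mesangial cells and pericytes, measured 7.25, 7.78 and 7.98 in CPS pools and 7.43, 7.55 and 7.74 in LD pools (0.14 ± 0.12). In 3 CPS pools Pdgfrb was above every LD pool while CPS replicate 6 was below them all, and without that pool the difference was 0.23 with a limma p of 0.0340. Pdgfrl, receptor-like by sequence, differed by 0.05. Of 12 PDGF pathway partners only Lrp1, an endocytic receptor that binds PDGFRB, was called, at 0.18 ± 0.08 higher in CPS pools. Of named genes 2.94% were called higher.

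**Figure D3:**
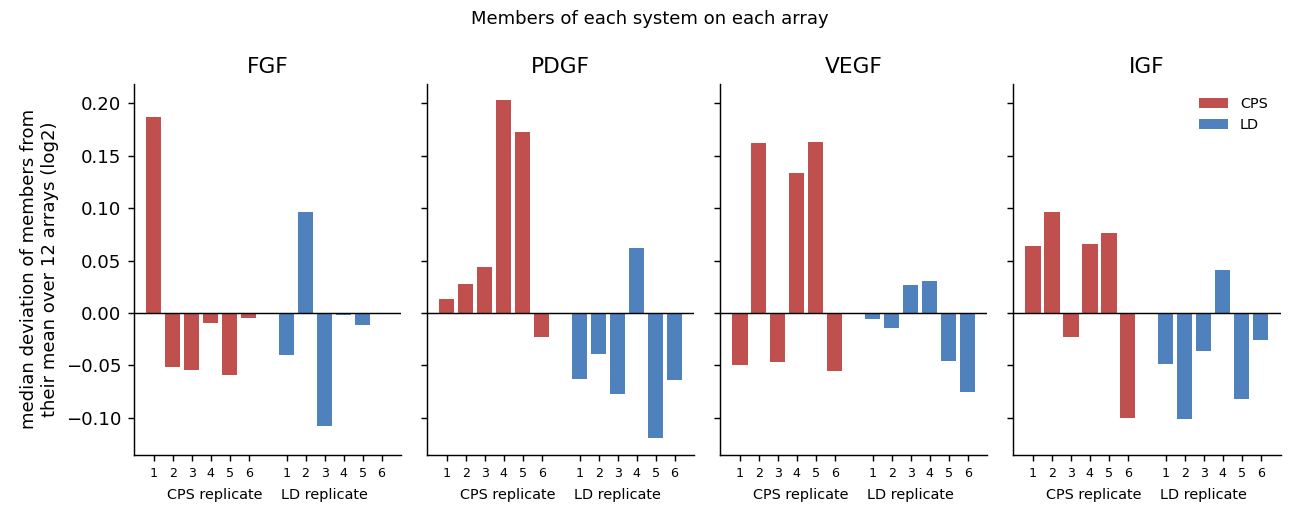
Median deviation of each system's members from their mean over the 12 arrays (log2), for CPS pools left of LD pools. For PDGF genes the CPS bars run from -0.02 to 0.20 and the LD bars from -0.12 to 0.06, whereas FGF bars of both groups lie on either side of 0.

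The FGF system held the most members, and 2 of its 18 were called, against 4.72% of named genes. Fgf11, an intracellular homologue that binds ion channels and is not secreted, measured 4.36, 4.64 and 4.78 in CPS pools and 4.07, 4.40 and 4.56 in LD pools. In 4 CPS pools it was above every LD pool. The difference was 0.26 ± 0.11 (limma p = 0.0439, exact permutation p = 0.0563), and the call was lost without CPS replicate 1, 2, 4 or 6 or LD replicate 2, 5 or 6, with p up to 0.101. Its relatives Fgf12 and Fgf14 differed by 0.02 and -0.03, and Fgf14 spread between 1.93 and 4.48 in CPS pools and between 2.28 and 4.25 in LD pools.

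Fgf21, a hormone of fasting metabolism made mainly by liver, measured 1.78, 1.99 and 2.20 in CPS pools and 1.83, 2.25 and 2.42 in LD pools. No CPS pool reached the LD median, and LD replicate 5 lay low among the CPS values. The difference was -0.24 ± 0.11 (limma p = 0.0488, exact permutation p = 0.0584), and the call remained only without CPS replicate 4 or LD replicate 5, with p up to 0.105. These levels are within the 1.28 to 2.66 spanned by the 5th to 95th percentile of 1263 olfactory and vomeronasal receptor genes, most of which are silent outside sensory tissue, so Fgf21 was read in the range of dim signal. Fgf3, Fgf5, Fgf6, Fgf16 and Fgf23 also had means there, and the means of the other 34 members were above it, as were those of all PDGF, VEGF and IGF genes. Fgf14 was above it by its mean of 2.86, but its CPS median of 2.39 lay inside the range and its LD median was 2.69.

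**Figure D4:**
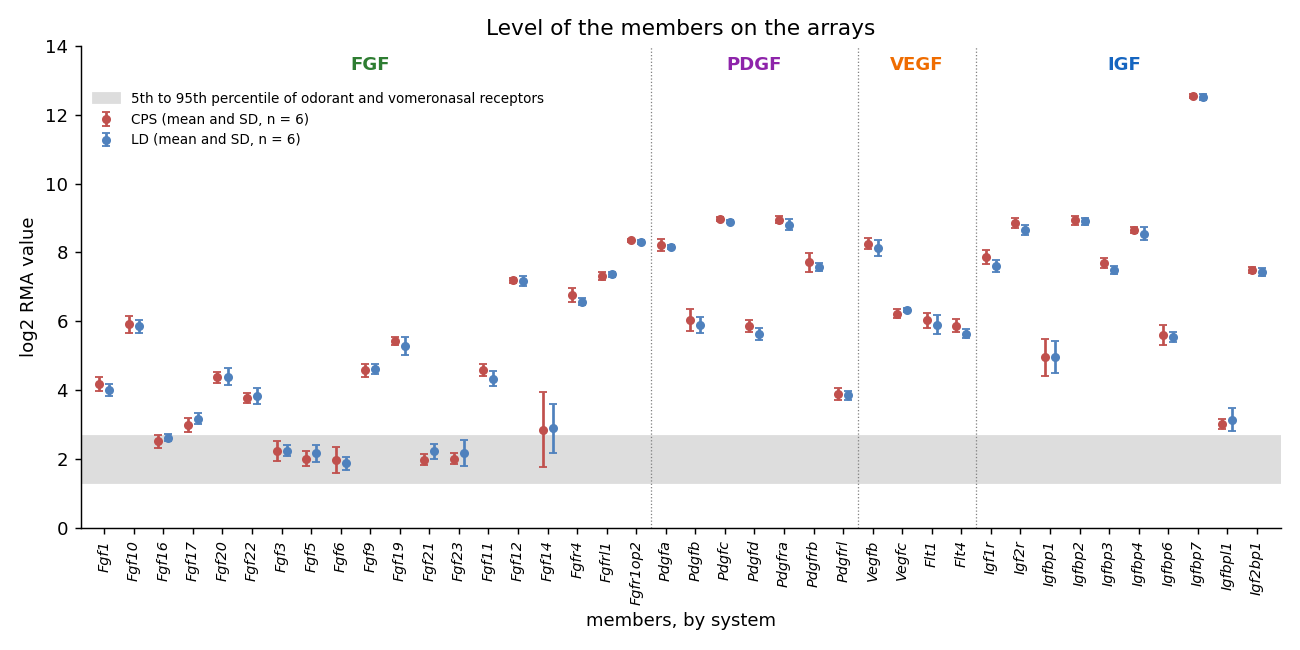
Log2 RMA value of all 40 members, mean and SD of 6 CPS pools (left point of a pair) and 6 LD pools, with the 5th to 95th percentile of olfactory and vomeronasal receptors shaded (1.28 to 2.66). Only FGF genes have means inside the band; levels of different genes rest on different probes and are not to be ranked.

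Fgf10, a mesenchymal ligand of ureteric branching, measured 5.65, 5.89 and 6.36 in CPS pools and 5.51, 5.89 and 6.06 in LD pools, with equal medians and a difference of 0.07 ± 0.12. Fgf9 and Fgf20, which keep nephron progenitors undifferentiated, differed by -0.04 ± 0.10 and -0.02 ± 0.12. Fgf9 measured 4.38, 4.56 and 4.87 in CPS pools and 4.40, 4.63 and 4.84 in LD pools. Fgf20 measured 4.16, 4.39 and 4.56 in CPS pools and 4.04, 4.38 and 4.73 in LD pools, so both ligands overlapped almost fully. Fgf1, which binds all FGF receptors, differed by 0.19 ± 0.11 with all 6 CPS pools above the LD median, and Fgf17 by -0.18 ± 0.11 with 0 above it. Fgfr4, the single FGF kinase receptor analysed here, was at 6.52, 6.71 and 7.03 in CPS pools and 6.47, 6.55 and 6.69 in LD pools (0.20 ± 0.10, limma p = 0.0648, exact permutation p = 0.0671). In 3 CPS pools Fgfr4 was above every LD pool, and without CPS replicate 3 or 6 it passed the threshold, with a limma p down to 0.0249. Fgfrl1, a receptor without a kinase that is needed for mouse nephron formation, measured 7.14, 7.31 and 7.53 in CPS pools and 7.24, 7.39 and 7.45 in LD pools and differed by -0.05 ± 0.07. The 17 FGF pathway partners take in co-receptors, adaptors, heparan sulphate genes, feedback inhibitors and targets. Among them limma called 0 in either direction, against 4.72% of named genes, and the median was 0.05. Spry1, Dusp6 and Etv5, which FGF signalling induces, differed by -0.02 ± 0.08, -0.10 ± 0.09 and -0.08 ± 0.08. Spry2 and Spry4 differed by -0.02 ± 0.06 and -0.01 ± 0.09. These 5 genes held the negative differences of the list, with limma p between 0.278 and 0.893. The other 12 were positive, Il17rd among them at 0.18 ± 0.08 (limma p = 0.0568, exact permutation p = 0.0519).

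Several receptors shared their highest or lowest pools. Among CPS pools, 6 of the 7 receptors were highest in replicate 5 and 6 of 7 lowest in replicate 6, and among LD pools 6 of 7 were highest in replicate 4. Flt4 was the exception in the lowest CPS pool (replicate 3) and in the highest LD pool (replicate 1), and Pdgfra in the highest CPS pool (replicate 4). The lowest LD pool was not shared: it was replicate 1 for Pdgfrb and Igf2r, replicate 2 for Fgfr4 and Flt4, and replicate 6 for Pdgfra, Flt1 and Igf1r. CPS replicate 5 had the lowest median of the 12 arrays (3.31), CPS replicate 6 the highest CPS median (3.49) and LD replicate 4 the lowest LD median (3.33). The part of array medians in the shared ranks was not tested. CPS replicate 5 was the highest CPS pool for the stromal, endothelial, pericyte, leukocyte and immediate early lists. LD replicate 4 was the highest LD pool for the stromal, pericyte, nephron progenitor, ureteric bud, podocyte and proximal tubule lists. The stromal mean was also used as a covariate, an alternative added after seeing the data. Igf1r then differed by -0.13 ± 0.15, Igf2r by -0.02 ± 0.15, Flt4 by -0.0015 ± 0.16 and Fgfr4 by 0.03 ± 0.17. The receptors Pdgfra, Pdgfrb and Flt1 differed by -0.06, -0.29 and -0.24. Under the same covariate Fgf11 differed by 0.27 ± 0.21, Igfbp3 by 0.17 ± 0.15, Pdgfd by 0.15 ± 0.19 and Fgf21 by -0.49 ± 0.18, with wider errors than without it. Of 40 members 1 was then called higher and 2 lower, and of 14557 named genes 282 (1.94%) and 297. Because the stromal means of the groups do not overlap, stromal content and CPS cannot be told apart in these pools. The stromal list itself was uneven: Postn (0.27), Col1a1 (0.34), Lum (0.27) and Foxd1 (0.19) were called higher and Tcf21 (-0.21) lower.

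**Figure D5:**
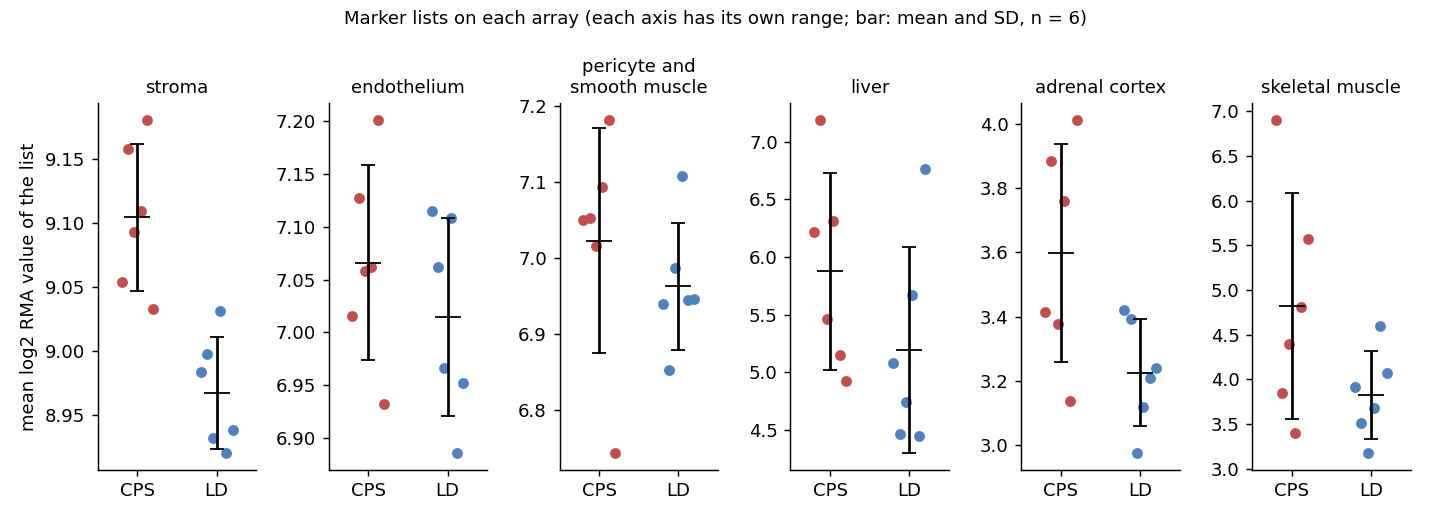
Mean log2 RMA value of 6 marker lists in each pool, CPS left of LD, with the mean and SD of 6 pools. The stromal list separates the groups (9.03 to 9.18 in CPS, 8.92 to 9.03 in LD), whereas the other lists overlap.

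Of the 9 adrenal cortex genes 5 were called higher and 0 lower, and of the 13 liver genes 0 in either direction. Over named genes 2.94% were called higher and 1.78% lower. With liver and adrenal list means as covariates, 5 members were called higher, where 3.05% of named genes were, and 0 lower. Igf1r (0.36 ± 0.14), Igfbp3 (0.24 ± 0.10), Flt4 (0.31 ± 0.12) and Pdgfd (0.35 ± 0.12) stayed called and Fgfr4 (0.33 ± 0.11) was added. Fgf11 (0.16 ± 0.15), Igf2r (0.25 ± 0.12) and Fgf21 (-0.26 ± 0.15) lost their calls. Without the pool of highest liver mean in each group, CPS replicate 2 and LD replicate 6, 0 of 40 members were called by limma in either direction, with 10 arrays left. Of 14557 named genes 337 were then called higher (2.32%) and 183 lower. The differences were then 0.20 ± 0.12 for Igf1r, 0.16 ± 0.10 for Igf2r, 0.21 ± 0.10 for Igfbp3, 0.21 ± 0.12 for Flt4, 0.25 ± 0.11 for Pdgfd, 0.23 ± 0.13 for Fgf11 and -0.26 ± 0.13 for Fgf21. Without LD replicate 5 alone, 0 members were called higher, where 2.29% of named genes were.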

How the data were processed

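The authors hybridised 12 pools to Affymetrix Rat Gene 2.1 ST arrays and deposited log2 values after RMA (background correction, quantile normalization, probe summary). RMA brings the probe values of all arrays to a common distribution, so only relative changes can be seen. The row values were not fully levelled, as array medians ran from 3.31 to 3.50. Centring arrays on their median moved the median difference over named genes from 0.01 to 0.05. Read depth does not apply to arrays, and precision rests on how many were hybridised. Of 36685 rows, the array annotation names 14824 by exactly 1 symbol; for each gene the row of highest mean was kept, giving 14557 genes. All 12 columns matched sample titles.

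CPS and LD were compared with limma 3.58.1 (R 4.3.3; lmFit, eBayes, no covariate) over all rows, with Benjamini-Hochberg adjustment, and single genes with exact two-sided permutation tests. The script was tested on simulated data. Members described in full were the called genes, the highest ligand and receptor and the lowest p of each system, and known kidney development genes. Members, roles, partner and marker lists were chosen with earlier results of these data known. Alternatives covered the test, replicate block, variance model, array weights, normalization, dim rows, tissue covariates and each array left out. Protein sequences were not used here. Promoters are from RefSeq (GRCr8).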

Additional observations from a re-analysis of the deposited data

Results flagged for a closer look

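In 5 of 80 groups of 6 pools, 1 pool lay far from the others by Dixon's test, which chance alone flags in about 1 in 20 groups. All 5 were LD pools. Flt1 was 5.36 in LD replicate 6, below the next pool at 5.93. Fgf14 was 4.25 in LD replicate 4, above the next at 3.01. Fgf23 was 2.89 in LD replicate 5 and Fgf5 was 2.66 in LD replicate 6, both genes of dim signal. Fgfr1op2 was 8.43 in LD replicate 2 (next 8.30). None of these is among the 7 called members.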

How the results depend on the processing

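The 7 called members kept their direction in all 12 fits without 1 array and under all 8 other planned settings that gave them a value, but few calls were stable. The threshold was reached in 33 of 84 pairs of called member and left-out array. Without 1 array, between 0 and 6 members were called higher and between 0 and 1 lower, and the system medians ran between -0.04 and 0.0045 for FGF, 0.10 and 0.17 for PDGF, 0.09 and 0.17 for VEGF, and 0.04 and 0.11 for IGF. In these fits between 2.27% and 4.33% of named genes were called higher. The replicate numbers did not pair the pools (same-number correlations -0.06 to 0.05, 0 pairs over 0.1, and 1 pool best with its own number), and with the replicate block 3 members were called higher (Flt4, Igfbp3 and Pdgfd lost) and 1 lower. The count called lower was 0 under the methods' test, the intensity trend, array weights, median centring, quantile normalization, the filter on dim rows (which removes Fgf21) and the liver and adrenal covariates. The methods' test added Pdgfc and lost Pdgfd, so 6 members were still called higher. The intensity trend lost Fgf11 and added Fgfr4, also leaving 6. Array weights lost Pdgfd and median centring lost Igf1r, which left 5 called higher under each. Choosing another row per gene was not run, as no member has several.

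Further alternatives were chosen after seeing the data. The stromal covariate left 1 higher (Igfbp6) and 2 lower (Fgf3, Fgf21), with medians of -0.0285 for PDGF, -0.0302 for VEGF and -0.02 for IGF. Centring on the mean of named genes left 3 higher, where 2.3% of named genes were, and 1 lower. Without the pools of highest liver mean, 0 were called higher and 0 lower, and the IGF median was 0.13. The causes were not tested.

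Signs turned for uncalled members under the settings below, and for the called Flt4, Igf1r and Igf2r under the stromal covariate. Log2 differences there were Igfbp1 0.0253 under array weights. Under median centring they were Fgf14 0.00591, Fgf20 0.0219, Fgf3 0.0155, Igfbp1 0.0118, and under quantile normalization Fgf20 0.000342. Under liver and adrenal covariates they were Fgf12 -0.0246, Fgf20 0.0806, Fgfrl1 0.0109, Igfbp6 -0.0212, Pdgfa -0.0628, Vegfb -0.0231. Without the highest liver pools they were Fgf5 0.00101, Igfbp7 -0.00416. Under the stromal covariate they were Fgf12 -0.0224, Fgf16 0.0520, Fgf20 0.26, Fgf22 0.0932, Fgf23 0.29, Fgf5 0.0199, Fgfrl1 0.0203, Flt1 -0.24, Flt4 -0.00150, Igf1r -0.13, Igf2r -0.0191, Igfbp2 -0.0411, Igfbp4 -0.00754, Igfbp7 -0.11, Igfbpl1 0.0169, Pdgfb -0.28, Pdgfra -0.0627, Pdgfrb -0.29, Pdgfrl -0.0285, Vegfb -0.0588, Vegfc 0.0278. Without 1 array the sign turned, within these ranges, for Fgf10 (-0.0230 to 0.12), Fgf12 (-0.0184 to 0.0659), Fgf14 (-0.36 to 0.24), Fgf20 (-0.0848 to 0.0545), Fgf22 (-0.12 to 0.00614), Fgf3 (-0.12 to 0.0405), Fgf6 (-0.0354 to 0.16), Fgf9 (-0.10 to 2.95e-05), Igfbp1 (-0.22 to 0.12), Igfbp2 (-0.00773 to 0.0642), Igfbp6 (-0.0199 to 0.12).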
